A study of Mus musculus with 19 samples.

Results

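The lungs of mice given the top dose (D3) of a mixture of 8 polycyclic aromatic hydrocarbons were compared with those of mice given the middle dose (D2), and vehicle-treated lungs (D0) were left out of the comparison. Arrays were chosen by their titles: 5 arrays of 5 D2 mice and 5 arrays of 4 D3 mice, 10 of the 19 arrays and 9 of the 18 mice of the series. All animals were male Muta™Mouse of about 12 weeks, a transgenic strain that carries a bacterial lacZ reporter for mutation assays. They were gavaged daily for 28 days with the mixture in olive oil, at 30 mg (D2) or 60 mg (D3) benzo[a]pyrene (BaP) equivalents per kg body weight per day, and lungs were collected 72 h after the final dose. D1, at 15 mg in the same unit (4 mice), entered the model for its residual spread and is shown where the 3 doses are set side by side. D0 mice entered only an alternative model with all 4 groups, for their spread. D3 Mouse 35 had 2 arrays, 35.1 and 35.2, which were averaged. Each array carried Cy5-labelled (red) lung RNA and Cy3-labelled (green) universal reference RNA pooled from 11 mouse cell lines, with no dye swap, and a level below is a log2 ratio of lung over reference. The question was which transcripts still changed when the dose was doubled from 30 to 60.

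Polycyclic aromatic hydrocarbons are metabolised to reactive intermediates by cytochrome P450 enzymes whose genes are induced through the aryl hydrocarbon receptor (AHR). The intermediates bind DNA, and the transcription factor p53, stabilised after DNA damage, raises genes that halt the cell cycle, aid repair or restrain growth signalling. Whole lung also holds epithelial, endothelial and immune cells, each with its own transcripts.

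The doubling of the dose was accompanied by few called changes. Of the 12 genes that rose, 6 were on a list of p53 targets that was written with earlier results of these data known. This does not count Celf5, which, like Ces2e, was put on that list from those results. Without Celf5 and Ces2e the list held 43 of the 30243 tested probes, and no list test was run. A probe was called where limma gave an adjusted p (Benjamini-Hochberg over all probes) no higher than 0.05 and groups differed by 1.5-fold or more, and 21 of the 30243 tested probes met this, which is 0.0694%. Of these, 17 were higher in D3 (0.0562%) and 4 lower (0.0132%). They belonged to 16 gene symbols, 12 higher and 4 lower, with 4 probes that matched no symbol. The adjusted p alone was met by 26 probes (0.086%), and an unadjusted p under 0.05 by 5.44% of probes with a higher and 5.87% with a lower level in D3. The median difference over all tested probes was -0.005 on the log2 scale (quartiles -0.10 and 0.09). All 21 called probes had D3 mice that did not overlap with the D2 mice, as had 3.71% of all tested probes.

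The 12 higher genes were Wfdc17, Cdkn1a, Celf5, Ccng1, Ackr3, Psrc1, Phlda3, Cgref1, Ddit4l, Sulf2, Thyn1 and Slc19a2, by 0.63 to 1.45 on the log2 scale. The 4 lower genes were Gpihbp1, Krt79, Chd2 and Trim59, by -0.62 to -1.46.

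**Figure D1:**
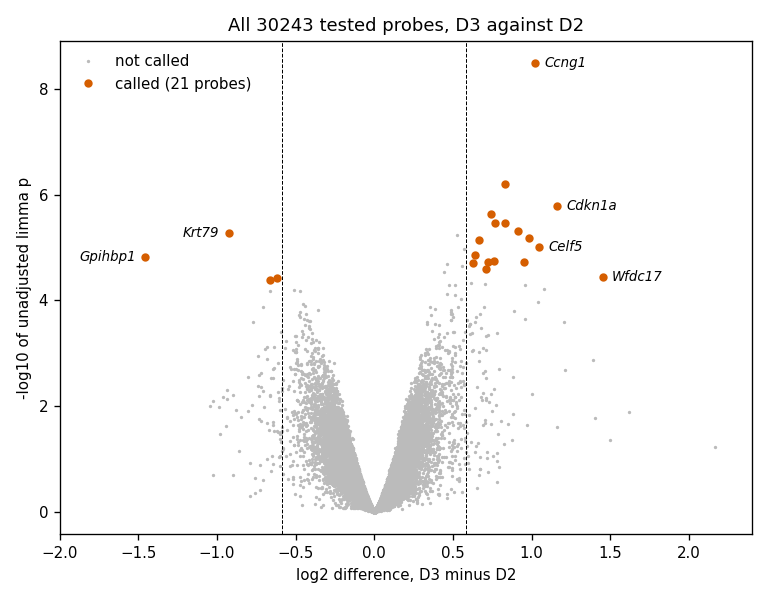
Each point is 1 of the 30243 tested probes, with the log2 difference (D3 minus D2) on the horizontal axis and -log10 of the unadjusted limma p on the vertical axis; dashed lines mark 1.5-fold. Orange points are the 21 called probes, and Ccng1 stands highest, with an adjusted p of 9.76e-05.

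Promoter windows of the called genes are shown because p53 acts by binding DNA and several of these genes are established p53 targets. RefSeq windows of 300 bases (250 before and 50 after a transcription start, build GRCm38.p6) were present for 14 of the 16 genes. Windows were searched on both strands for the half-site of p53, a run of 10 bases made of 3 purines, C, 2 bases that are A or T, G and 3 pyrimidines. The motif was chosen after the values were seen. At least 1 window of 5 genes (Cdkn1a, Ccng1, Celf5, Ddit4l and Ackr3) held it, and 9.55% of the 27025 genes with a window did. The 5 windows follow, 5′ to 3′ on the strand of the gene, with half-sites in capitals.
Cdkn1a, chr17:29090729-29091028, plus strand: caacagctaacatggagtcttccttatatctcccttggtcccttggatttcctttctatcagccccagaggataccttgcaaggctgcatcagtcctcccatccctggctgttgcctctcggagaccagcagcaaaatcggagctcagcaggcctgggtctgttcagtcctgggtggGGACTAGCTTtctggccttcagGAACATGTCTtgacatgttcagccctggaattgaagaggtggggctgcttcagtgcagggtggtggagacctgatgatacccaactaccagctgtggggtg
Ccng1, chr11:40755237-40755536, minus strand: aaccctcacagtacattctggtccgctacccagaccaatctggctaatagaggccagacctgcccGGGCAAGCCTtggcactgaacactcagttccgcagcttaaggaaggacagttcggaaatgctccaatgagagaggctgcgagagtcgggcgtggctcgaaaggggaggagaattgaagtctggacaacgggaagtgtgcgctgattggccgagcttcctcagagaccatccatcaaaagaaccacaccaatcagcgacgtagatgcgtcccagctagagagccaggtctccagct
Celf5, chr10:81482650-81482949, minus strand: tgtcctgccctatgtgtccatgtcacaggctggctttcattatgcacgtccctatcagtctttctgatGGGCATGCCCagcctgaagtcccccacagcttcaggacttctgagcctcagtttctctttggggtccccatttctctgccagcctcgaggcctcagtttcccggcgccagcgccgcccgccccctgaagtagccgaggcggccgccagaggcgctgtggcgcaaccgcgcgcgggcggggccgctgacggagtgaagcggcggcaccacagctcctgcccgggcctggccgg
Ddit4l, chr3:137623422-137623721, plus strand: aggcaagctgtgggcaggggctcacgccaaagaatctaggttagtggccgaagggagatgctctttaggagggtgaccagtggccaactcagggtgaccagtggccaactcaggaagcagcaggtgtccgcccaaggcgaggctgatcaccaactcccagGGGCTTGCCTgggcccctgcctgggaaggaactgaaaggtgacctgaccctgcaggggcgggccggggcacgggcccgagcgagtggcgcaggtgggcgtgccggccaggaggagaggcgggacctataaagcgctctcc
Ackr3, chr1:90203730-90204029, plus strand: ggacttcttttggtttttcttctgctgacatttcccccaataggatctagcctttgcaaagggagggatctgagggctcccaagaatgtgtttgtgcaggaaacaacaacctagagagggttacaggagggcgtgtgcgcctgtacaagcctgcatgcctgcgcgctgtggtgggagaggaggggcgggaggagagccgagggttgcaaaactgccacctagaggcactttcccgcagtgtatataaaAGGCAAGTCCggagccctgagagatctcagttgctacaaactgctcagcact
RefSeq gives Cdkn1a and Celf5 more than 1 start, and their windows not printed, 1 for Cdkn1a and 4 for Celf5, held no half-site. Counted from the start of the printed window, the pair in Cdkn1a began at -73 and -51, and the half-site of Ccng1 began at -185, of Celf5 at -182, of Ddit4l at -90 and of Ackr3 at -2. Windows of Wfdc17, Psrc1, Phlda3, Cgref1, Sulf2, Thyn1, Slc19a2, Trim59 and Krt79 held none. A match describes these letters only, and binding was not measured.

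Cdkn1a (NM_007669), the cyclin-dependent kinase inhibitor p21 and a direct p53 target, was 2.24-fold higher in D3. Its level in the D2 mice 26, 28, 29, 30 and 23 was 1.15, 1.41, 1.36, 0.95 and 0.75, and in the D3 mice 31, 32, 34 and 35 it was 2.17, 2.26, 2.25 and 2.46. Every D3 mouse lay above every D2 mouse, and the D3 mice were close together. The log2 difference was 1.16 ± 0.15 (SE; limma adjusted p = 0.0164), and the other Cdkn1a probe (NM_001111099) was also called, at 0.98 ± 0.15 (SE; limma adjusted p = 0.0194). Without any 1 mouse the first difference was 1.07 to 1.23, and its call was lost without D3 mouse 31, 32 or 35 or D2 mouse 30.

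Ccng1 (NM_009831), which encodes cyclin G1, a p53-induced regulator of Mdm2, was the most firmly called gene. Its D2 levels were 0.13, 0.27, 0.19, 0.04 and -0.08 and its D3 levels 1.26, 1.17, 1.05 and 1.03, in the same order of mice. The gap between the lowest D3 mouse and the highest D2 mouse was larger than the spread within either group. The difference was 1.02 ± 0.08 (SE), or 2.03-fold (limma adjusted p = 9.76e-05). Ccng1 was called without each of the 13 mice in turn and in 27 of 28 fits with a test, all but median centring in place of loess.

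Phlda3 (NM_013750), a p53-induced inhibitor of Akt, was 1.67-fold higher. The D2 mice had 1.55, 1.77, 1.65, 1.56 and 1.31, and the D3 mice 2.29, 2.27, 2.24 and 2.43. The groups did not overlap, and the difference was 0.74 ± 0.10 (SE; limma adjusted p = 0.0175). The call was lost without D3 mouse 31, 32 or 35 or D2 mouse 30, with differences of 0.68 to 0.79 over all such fits.

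Celf5 (NM_176954), of the CELF family of RNA-binding proteins, had levels of -1.01, -1.06, -0.73, -1.33 and -1.83 in D2 and of -0.20, -0.18, -0.11 and -0.08 in D3. The D2 mice were spread widely while the D3 mice were nearly level. It was 2.07-fold higher in D3 (1.05 ± 0.16 SE, limma adjusted p = 0.0245). Its other probe was not called, with a difference of 0.50 ± 0.10 (SE; limma adjusted p = 0.103), so that the size of the Celf5 change differed between probes. Without 1 mouse the call was lost for D3 mouse 31, 32, 34 or 35 and D2 mouse 30 (0.89 to 1.17).

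A further 7 genes rose by 0.63 to 0.95 on the log2 scale. Sulf2 (NM_028072), an extracellular sulfatase that trims heparan sulfate, went from -1.25 ± 0.22 (SD, n = 5) to -0.58 ± 0.04 (SD, n = 4), and Ddit4l (NM_030143), an inhibitor of mTOR signalling, from 1.04 ± 0.23 to 1.75 ± 0.15. Psrc1 (NM_001190161), a microtubule-binding protein of the mitotic spindle, went from -2.11 ± 0.17 to -1.36 ± 0.24, and Ackr3 (NM_007722), an atypical receptor that scavenges the chemokine CXCL12, from 1.29 ± 0.23 to 2.24 ± 0.24. Cgref1 (NM_026770), a cell growth regulator with EF-hand domains, went from -2.27 ± 0.12 to -1.55 ± 0.27, Slc19a2 (NM_054087), a thiamine transporter, from -0.99 ± 0.10 to -0.36 ± 0.14, and Thyn1 (NM_144543) from -0.63 ± 0.14 to 0.01 ± 0.05. Their limma adjusted p was 0.0194 (Sulf2) to 0.0344 (Ddit4l). Each was called in 3 to 7 of the 13 fits that left out 1 mouse.

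**Figure D2:**
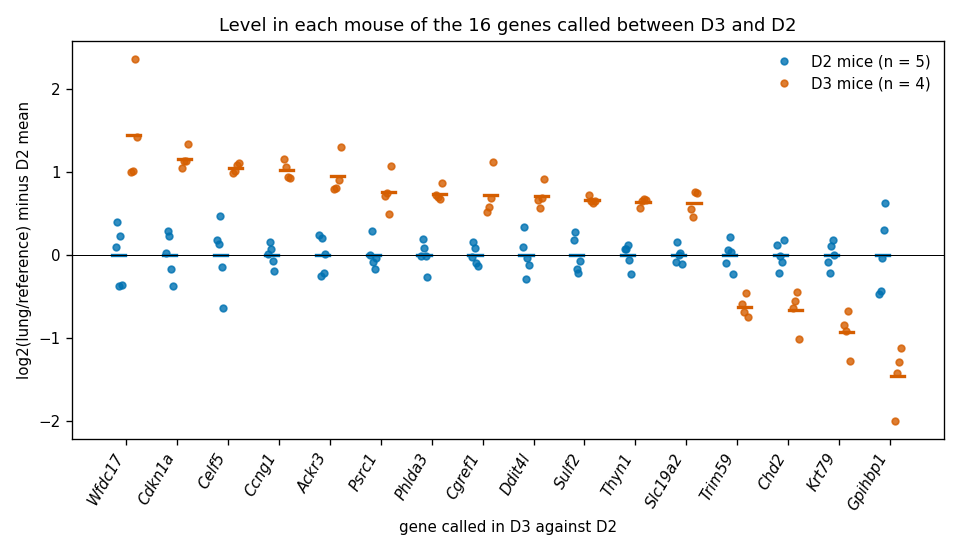
Level of each of the 16 called genes in every mouse, as log2 lung over reference minus the mean of the D2 mice, with D2 mice in blue (n = 5), D3 mice in orange (n = 4) and horizontal bars at the group means. For every gene the D3 mice lie wholly above or wholly below the D2 mice, and Wfdc17 has the widest spread in D3.

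The wider list of p53 targets, which was written with earlier results of these data known, held 46 tested probes of 40 genes. Of these, 8 were called higher and 0 lower (against 0.0562% and 0.0132% of all tested probes). A further count, at an unadjusted p under 0.05, gave 20 higher and 0 lower (5.44% and 5.87% of all probes), and in 18 every D3 mouse lay above every D2 mouse (1.85% of all probes). The list had 38 probes above 0 and 8 below, and its median difference was 0.25 (quartiles 0.07 and 0.53) beside -0.005 for all probes. Celf5 and Ces2e had been put on the list from those earlier results. Without them, an alternative chosen after seeing the data, 7 of 43 probes, of 6 genes, were called and the median was 0.23.

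The mean level of the p53 list was 0.23, 0.26, 0.28, 0.14 and 0.03 in the D2 mice and 0.48, 0.53, 0.50 and 0.56 in the D3 mice, without overlap. Without any 1 mouse the list's median difference was 0.23 to 0.30, and within slides 1, 2 and 3 it was 0.18, 0.27 and 0.47. Slides 1 and 2 held 2 mice of each dose and slide 3 only 1 of each, D2 mouse 23 and D3 mouse 35 (array 35.2). Mouse 35 was also on slide 2 (array 35.1), so that values within slides are not independent repeats, and none of them has a test.

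Several p53 targets missed the thresholds. Gdf15 (NM_011819), a stress-induced cytokine of the TGF-beta family, had levels of 0.62, 0.91, 0.39, 0.19 and -0.35 in D2 and 1.37, 1.48, 1.33 and 1.54 in D3. The groups did not overlap, but the D2 spread was wide, and the difference of 1.08 ± 0.20 (SE) had an adjusted p of 0.057 in limma. It was called without D2 mouse 28 (1.22, limma adjusted p = 0.0126), with all 4 groups in the model (limma adjusted p = 0.0151) and with the arrays of mouse 35 apart (limma adjusted p = 0.0153), a fit that counts 1 animal as 2.

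Mdm2 (NM_010786), the ubiquitin ligase through which p53 limits itself, was at 0.58, 0.44, 0.66, 0.46 and 0.19 in D2 and at 0.87, 0.80, 0.82 and 0.94 in D3. These also did not overlap, but the difference of 0.39 ± 0.11 (SE) did not reach 1.5-fold (limma adjusted p = 0.25). Bax, a pore-forming effector of apoptosis, had a difference of 0.10 (95% interval -0.41 to 0.60; -0.097 without D2 mouse 23 and 0.25 without D3 mouse 35), and Ces2e, a carboxylesterase, one of 0.49 (-0.01 to 1.00). The lowest probe of the list, of Tigar, a regulator of glycolysis, had -0.45 ± 0.46 (SE; limma adjusted p = 0.761), and the other Tigar probe had -0.01 ± 0.08 (SE).

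The levels in D1 lay near those in D2 for most of the called p53 targets. Cdkn1a was at 1.11 ± 0.33 (SD, n = 4) in D1, 1.12 ± 0.28 (SD, n = 5) in D2 and 2.28 ± 0.12 (SD, n = 4) in D3, and Ccng1 at 0.07 ± 0.06, 0.11 ± 0.13 and 1.13 ± 0.11. Phlda3 was at 1.44, 1.57 and 2.31. Because these genes were called for the D3 against D2 step, that it was the larger step is in part a result of that choice. The difference between the steps (D3 minus D2, less D2 minus D1) was 0.98 ± 0.14 (SE) for Ccng1 (limma adjusted p = 0.0712) and 1.15 ± 0.26 (SE) for Cdkn1a (limma adjusted p = 0.251). In limma 0 of 30243 probes passed for this difference, with 3417 at an unadjusted p under 0.05.

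**Figure D3:**
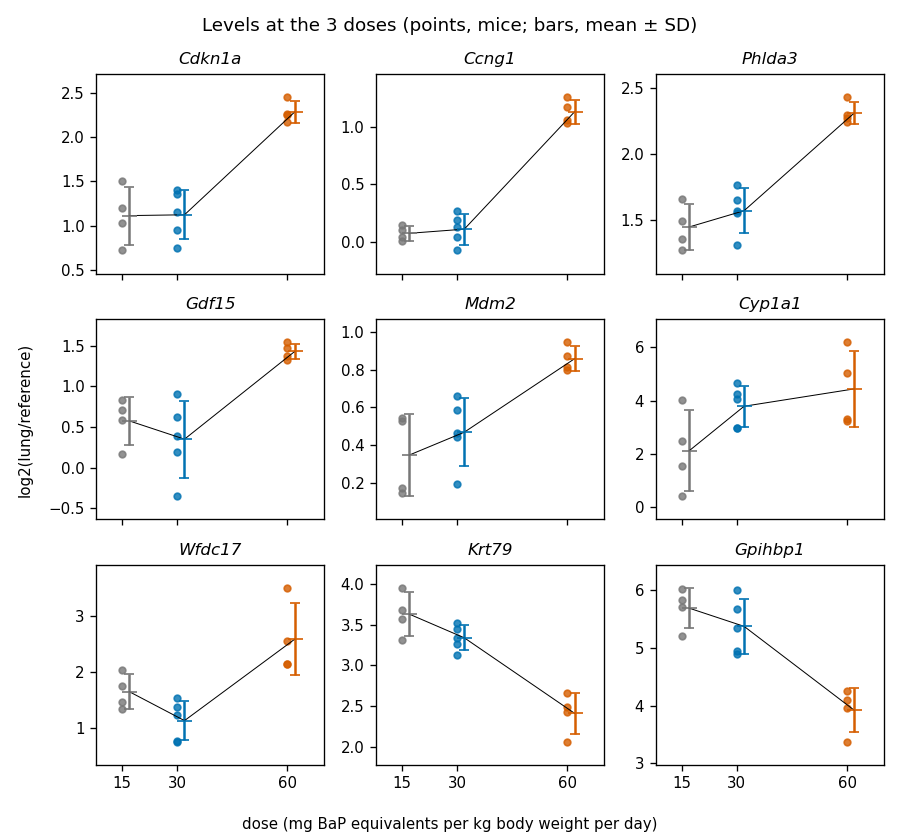
Log2 lung over reference against dose (15, 30 and 60 mg BaP equivalents per kg body weight per day) for 9 genes; points are mice (n = 4, 5 and 4), bars are mean ± SD and lines join the means. Cdkn1a and Ccng1 sit at near-equal means at 15 and 30 and higher at 60, while Cyp1a1 mice of neighbouring doses overlap.

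The main P450 among the AHR genes overlapped between the doses. Cyp1a1, the P450 that oxidises aromatic hydrocarbons, had levels of 4.67, 2.99, 4.25, 4.05 and 2.98 in D2 and of 6.18, 3.30, 5.03 and 3.24 in D3. The D3 mice lay on both sides of the D2 mean, and the difference of 0.65 had a wide 95% interval of -0.80 to 2.10 (limma adjusted p = 0.771). It was 0.069 without D3 mouse 31, 1.03 without D3 mouse 32 and 1.05 without D3 mouse 35. Cyp1b1, a related P450, had 0.27 (-0.25 to 0.78), Ahrr, the repressor of AHR, 0.05 (-0.31 to 0.40), and Tiparp, another AHR-induced repressor, -0.06 (-0.23 to 0.12). Without any 1 mouse these ran from -0.00039 (D3 mouse 31) to 0.42 (D3 mouse 32) for Cyp1b1, from -0.061 (D2 mouse 23) to 0.11 (D2 mouse 26) for Ahrr and from -0.099 (D3 mouse 34) to -0.012 (D3 mouse 32) for Tiparp. Of the 24 probes of the AHR list, 0 were called in limma (0.0694% of all probes), a share that in a list of this size cannot be told from the background. There, 1 was higher and 0 lower at an unadjusted p under 0.05, in 2 every D3 mouse lay above every D2 mouse (1.85% of all probes), and the median was 0.02, or -0.042 to 0.037 without any 1 mouse.

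Genes of the NRF2 antioxidant response also lay near 0, with a median of 0.01 over 29 probes and 0 called in limma, beside 0.0694% of all probes (2 higher and 0 lower at an unadjusted p under 0.05, beside 5.44% and 5.87% of all probes). Nqo1, a quinone reductase, was highest among them at 0.23 (95% interval -0.06 to 0.52), and 0.15 without D2 mouse 29. Ephx1, the epoxide hydrolase that acts on epoxides of aromatic hydrocarbons, met the adjusted p with 1 probe (0.56 ± 0.09 SE, limma adjusted p = 0.032), just under 1.5-fold, and its brighter probe had 0.39 ± 0.09 (SE; limma adjusted p = 0.179). The clock genes Dbp (-0.15), Arntl (0.04), Per2 (-0.001) and Per3 (-0.12) all had intervals that include 0 and moved by over 1.5 times without 1 mouse (to -0.10 for Dbp without D3 mouse 34 and -0.015 for Per3 without D2 mouse 30, across 0 for Arntl and Per2). Of 19 clock probes 0 were called in limma (0.0694% of all probes), which in so short a list cannot be told from the background. At an unadjusted p under 0.05, 1 was higher and 2 were lower (5.44% and 5.87% of all probes).

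Wfdc17 (NM_001081957), a secreted protein with a whey acidic protein domain, had the largest called increase, 2.73-fold. D2 mice had 1.23, 1.53, 0.76, 1.37 and 0.78, and D3 mice 2.14, 2.15, 3.50 and 2.56. The groups did not overlap, and D3 mouse 34 stood highest. The difference was 1.45 ± 0.25 (SE; limma adjusted p = 0.0451), and in only 1 of 13 fits without a mouse, that without D2 mouse 28, was it called (range 1.15 to 1.60). Its D1 level of 1.65 ± 0.31 (SD, n = 4) was above that of D2.

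The list of stefins and Wfdc protease inhibitors, secreted or cytosolic proteins made largely by myeloid cells and epithelium, had 10 of 14 probes above 0 and a median of 0.57. It had 1 probe called higher (0.0562% of all probes), that of Wfdc17, and 6 higher at an unadjusted p under 0.05 (5.44% of all probes). Stfa1, a cysteine protease inhibitor, had 1.30, 0.83, 1.22, 0.85 and 0.72 in D2 and 1.40, 2.41, 3.03 and 1.92 in D3, a difference of 1.21 ± 0.25 (SE; limma adjusted p = 0.11) that was called with all 4 groups in the model (limma adjusted p = 0.0347). Without D3 mouse 35 the list's median was 0.28, and within slides 1, 2 and 3 it was 0.08, 0.87 and 0.43. The mean level of the list was 1.55 to 1.86 in D2 and 1.96 to 2.59 in D3, without overlap. Stefin genes are near-identical copies, so probes may share their signal.

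Inflammatory and acute phase genes leaned the same way, with 20 of 24 probes above 0, a median of 0.37 and 0 called in limma (0.0694% of all probes), but 10 higher and 0 lower at an unadjusted p under 0.05 (5.44% and 5.87% of all probes). The list's mean level was -0.20, -0.26, -0.18, -0.39 and -0.21 in the D2 mice and -0.04, 0.01, 0.10 and 0.39 in the D3 mice, which did not overlap, as in the p53 and stefin lists. Its highest member was Cxcl1, a neutrophil-attracting chemokine, which went from -3.64 ± 0.23 (SD, n = 5) to -2.68 ± 0.24 (SD, n = 4), just outside the threshold (0.96 ± 0.17 SE, limma adjusted p = 0.0506). Lcn2, an iron-sequestering acute phase protein that is also on the neutrophil list, had 0.49 ± 0.18 (SE; limma adjusted p = 0.356), and 0.33 without D3 mouse 35.

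Neutrophil genes were mixed. S100a8, a calcium-binding protein of neutrophils, had 3.01, 2.12, 2.57, 2.21 and 1.85 in D2 and 2.85, 3.02, 4.49 and 2.20 in D3, overlapping and highest in mouse 34. Its difference was 0.79 (95% interval 0.07 to 1.51, limma adjusted p = 0.405), and S100a9, its partner, differed by 0.40 (95% interval -0.07 to 0.87). Without 1 mouse the S100a8 difference ran from 0.34 (D3 mouse 34) to 1.102 (D3 mouse 35), and that of S100a9 was 0.14 without D3 mouse 34. Other members lay below 0. Csf3r had -0.27 (95% interval -0.49 to -0.06, limma adjusted p = 0.36), with all D3 mice below all D2 mice (1.86% of all probes). Hdc had -0.22 (-0.56 to 0.12), or -0.30 to -0.13 without any 1 mouse, and the lowest member was Camp at -0.45. The mean level of the neutrophil list was 1.42 to 1.80 in D2 and 1.60, 1.60, 2.39 and 1.48 in D3, so that mouse 34 was highest in it as it was in Wfdc17 and Stfa1. The part of neutrophil RNA in those differences was not tested. Of the list's 25 probes 17 lay above 0 and 8 below, with 0 called in limma (0.0694%). At an unadjusted p under 0.05, 8 were higher and 2 lower (5.44% and 5.87% of all probes). The list's median was 0.16. It was 0.046 without D3 mouse 34, 0.28 without D3 mouse 32, 0.29 without D2 mouse 26 and 0.31 without D3 mouse 35, and within slides 1, 2 and 3 it was 0.007, 0.40 and 0.036.

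Krt79 (NM_146063), a keratin found among mouse alveolar macrophage transcripts, was lower in D3. The D2 mice had 3.26, 3.12, 3.45, 3.52 and 3.34 and the D3 mice 2.49, 2.43, 2.66 and 2.06. There was no overlap, and the difference was -0.93 ± 0.14 (SE), or 1.90-fold lower (limma adjusted p = 0.0194), with the call lost without D3 mouse 31, 32 or 35 or D2 mouse 30 or 23 (-1.01 to -0.81). In the list of 32 alveolar macrophage probes, 24 were above 0 (48.5% of all probes), Krt79 was the 1 called (0.0132% of all probes were called lower), the median was 0.21, and the highest was Gpnmb, a lysosomal glycoprotein, at 0.88 (limma adjusted p = 0.25). Without D2 mouse 26 that median was 0.13. The mean level of the list was 2.06 to 2.47 in the D1 mice, 1.82 to 2.25 in D2 and 2.09 to 2.19 in D3. In whole lung, fewer cells of a type and less RNA per cell cannot be told apart.

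Gpihbp1 (NM_026730), which carries lipoprotein lipase across capillary endothelial cells, had the largest called decrease. Levels were 4.90, 4.94, 5.34, 5.68 and 6.0 in D2 and 3.37, 3.95, 4.09 and 4.25 in D3, with all D3 mice below all D2 mice (as for 1.86% of all tested probes). It was 2.74-fold lower (-1.46 ± 0.23 SE, limma adjusted p = 0.0305), and in 5 of 13 fits without a mouse it was called (-1.57 to -1.28). The 31 capillary endothelium probes had a median of -0.09 (-0.17 without D3 mouse 34, -0.14 without D2 mouse 26 or 28, -0.054 without D2 mouse 29, -0.034 without D2 mouse 30 and -0.023 without D3 mouse 31) with 22 below 0, 2 higher and 4 lower at an unadjusted p under 0.05 (5.44% and 5.87% of all probes), and the mean level of that list was 4.08 to 4.40 in D2 and 3.95 to 4.25 in D3. Emcn, endomucin of the endothelial surface, was its highest at 0.41 (limma adjusted p = 0.373). Over 45 probes of lipid uptake and PPAR-controlled genes the median was 0.03, with Gpihbp1 the 1 called, as it was in the capillary list (0.0132% of all probes were called lower).

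Trim59 (NM_025863), a tripartite motif protein, went from -2.57 ± 0.17 (SD, n = 5) to -3.19 ± 0.13 (SD, n = 4), 1.54-fold lower (limma adjusted p = 0.0451). Chd2 (NM_001081345), a chromatin remodeller, went from 0.48 ± 0.16 to -0.18 ± 0.25 by 1 of its 3 probes (limma adjusted p = 0.0474), while the others had -0.46 and -0.07 and were not called. Trim59 was called in 2 and Chd2 in 1 of the 13 fits without a mouse. Chd2 was not called with slide as a block (limma adjusted p = 0.0522), and Trim59 was not called with all 4 groups in the model (limma adjusted p = 0.0895).

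B cell genes had lower mean levels in D3 than in D2 at every probe of their list, though 0 of 21 were called in limma (0.0694% of all probes). The 21 differences had a median of -0.49, and 15 had an unadjusted p under 0.05 (5.87% of all probes were lower at that level). The groups overlapped in all but 1 probe. Cd79b, a signalling chain of the B cell receptor, had 0.65, 1.46, 1.66, 1.76 and 0.80 in D2 and 0.88, 0.80, 0.78 and 0.03 in D3, a difference of -0.65 ± 0.25 (SE; limma adjusted p = 0.368). Cr2, the complement receptor of B cells, was lowest at -0.85, and Cd72, a B cell inhibitory receptor, had 2 probes at -0.68 (limma adjusted p = 0.179 and 0.215).

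The mean level of the B cell list was 1.09, 1.52, 1.90, 1.97 and 1.25 in the D2 mice and 1.14, 0.95, 1.41 and 0.75 in the D3 mice. Mice 29 and 30 stood highest and D3 mouse 35 lowest, and the groups overlapped. The D1 mice had 1.43, 1.14, 1.31 and 1.11, which overlapped with both D2 and D3. The median was -0.37 without D3 mouse 35, and within slides 1, 2 and 3 it was -0.22, -0.97 and -0.58. T cell genes lay at a median of 0.02 over 26 probes (-0.050 to 0.073 without any 1 mouse), with 0 higher and 0 lower at an unadjusted p under 0.05 (5.44% and 5.87% of all probes). The cytotoxic lymphocyte list had a median of -0.09 over 23 probes (-0.14 without D3 mouse 34 or D2 mouse 28 and -0.058 without D3 mouse 31), with 6 above 0 and 17 below, 0 called in limma (0.0694% of all probes) and 2 lower at an unadjusted p under 0.05 (5.87% of all probes). Its lowest member, Gzma (granzyme A), had 2.59, 1.67, 2.86, 2.72 and 3.40 in D2 and 1.78, 2.02, 2.00 and 1.03 in D3, which overlapped (-0.94, 95% interval -1.74 to -0.14, limma adjusted p = 0.377). Ccl5, a chemokine of these cells, had -0.38 (-0.86 to 0.10, limma adjusted p = 0.564), and -0.20 without D3 mouse 35.

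Cell cycle genes lay mostly below 0, with 41 of 46 probes, a median of -0.15 and 0 called in limma (0.0694% of all probes). At an unadjusted p under 0.05, 1 was higher and 9 were lower, beside 5.44% and 5.87% of all probes. Mki67, a marker of dividing cells, had -2.91, -2.75, -3.08, -3.18 and -2.57 in D2 and -3.66, -3.77, -3.86 and -2.97 in D3. Mouse 35 overlapped with D2 and the other D3 mice did not (-0.66 ± 0.21 SE, limma adjusted p = 0.292), and Mki67 was the lowest probe of the list. Top2a, a topoisomerase of dividing cells, had -3.25, -3.13, -3.78, -3.81 and -3.49 in D2 and -3.46, -3.61, -3.97 and -3.40 in D3, which overlapped (-0.12 ± 0.15 SE, limma adjusted p = 0.815). Without any 1 mouse that difference ran from -0.20 (D2 mouse 30) to -0.0012 (D3 mouse 34). Ccnd1, cyclin D1 of the G1 phase, lay on the other side at 0.41 ± 0.09 (SE; limma adjusted p = 0.143). The list's median was -0.086 without D2 mouse 28 and -0.072 without D3 mouse 34, and it was -0.34 within slide 1 and 0.03 and -0.01 within slides 2 and 3.

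Epithelial genes had no called probe. All 17 club and secretory cell probes were below 0 with a median of -0.29, and the means of that list were 3.64 to 4.67 in D2 and 3.53 to 4.55 in D3, nearly the same range. That median was -0.51 without D3 mouse 34, and within slides 1, 2 and 3 it was -0.31, -0.10 and -0.79. Scgb1a1, the club cell secretoglobin, had -0.30 (95% interval -0.85 to 0.25; -0.17 without D3 mouse 31 and -0.13 without D2 mouse 30). Type 2 alveolar genes had a median of -0.20 over 20 probes, with Sftpc, a surfactant protein, at -0.31 (-0.80 to 0.17; -0.15 without D3 mouse 31 and -0.17 without D2 mouse 30), ciliated cell genes -0.14 over 21, and type 1 alveolar genes -0.004 over 18. In these 4 lists 0 probes were called in limma (0.0694% of all probes), and 2 of their 76 probes were higher and 1 lower at an unadjusted p under 0.05 (5.44% and 5.87% of all probes). Without D3 mouse 31 the type 2 median was -0.13, and without any 1 mouse the ciliated median ran from -0.22 (D3 mouse 34 or D2 mouse 28) to -0.056 (D2 mouse 23).

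The lists of heat shock (median -0.13, 19 probes), interferon-stimulated (-0.002, 29), collagen and matrix (0.06, 25), erythroid (0.07, 11), mast, basophil and eosinophil (-0.06, 10), glucocorticoid-responsive (-0.08, 19), xenobiotic enzyme (-0.09, 42) and carbonic anhydrase genes (-0.03, 15) had 0 called probes in limma (0.0694% of all probes). At an unadjusted p under 0.05 the xenobiotic enzyme list had 5 probes higher and 3 lower, and the glucocorticoid-responsive list 2 higher and 4 lower (5.44% and 5.87% of all probes). The collagen list had 2 higher and 1 lower, the erythroid list 0 and 1, the mast list 0 and 2, and the other lists named here 0 and 0. Of the heat shock probes 1 of 19 lay above 0 (48.5% of all probes). Without 1 mouse several medians of these lists turned sign. The erythroid median ran from -0.14 without D3 mouse 35 to 0.17 without D3 mouse 32, that of the mast list from -0.16 without D3 mouse 34 to 0.030 without D3 mouse 32, that of the interferon list ran from -0.052 to 0.072, and that of the carbonic anhydrases from -0.044 to 0.039. The collagen median was 0.18 without D3 mouse 32, 0.12 without D2 mouse 29 and 0.032 without D3 mouse 35, and the glucocorticoid median was -0.17 without D3 mouse 34 and -0.042 without D3 mouse 32. That of the xenobiotic enzymes ran from -0.11 to -0.026, and those of the type 1 alveolar (-0.060 to 0.082), NRF2 (-0.0037 to 0.063) and lipid uptake lists (-0.061 to 0.069) ran across 0. The heat shock median was -0.23 without D2 mouse 30 and -0.20 without D3 mouse 31. Car14, a carbonic anhydrase of the cell membrane, had -0.36 (95% interval -0.79 to 0.07), and -0.20 without D3 mouse 31.

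**Figure D4:**
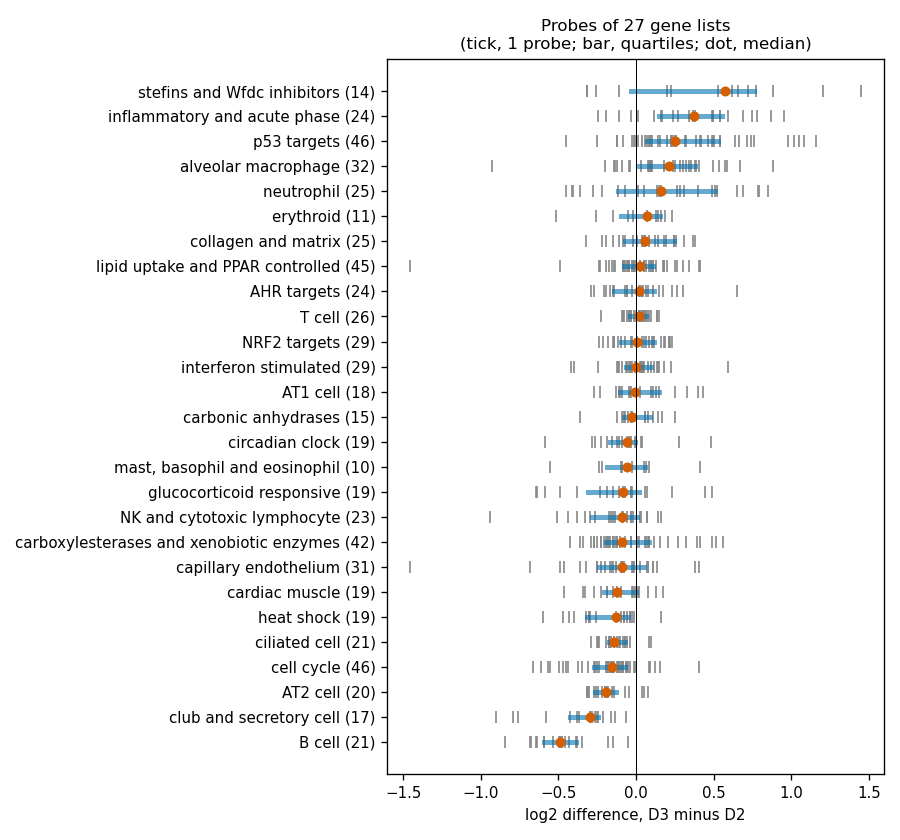
Log2 difference (D3 minus D2) of every tested probe in 27 gene lists, with the number of probes in brackets; ticks are probes, blue bars run between the quartiles and orange dots are medians. The stefin and Wfdc, inflammatory and p53 lists have the highest medians (0.57, 0.37 and 0.25) and the club and B cell lists the lowest (-0.29 and -0.49).

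Of the called probes without a symbol, 3 lay in a single noncoding region at chr4:149445201-149445902 (mm9, the build in the file headers), all read on the F strand of the design. All 3 probes designed to that region were tested and called, with differences of 0.77 ± 0.11, 0.83 ± 0.10 and 0.91 ± 0.13 (SE) and limma adjusted p of 0.0175, 0.00952 and 0.0194. The second had 0.54, 0.85, 0.46, 0.57 and 0.34 in D2 and 1.25, 1.38, 1.37 and 1.54 in D3, without overlap. The fourth lay at chr1:163508244-163586072 (mm9), at 0.83 ± 0.12 (SE; limma adjusted p = 0.0175). There, 5 probes of the F strand were tested, 1 was called and the others had 0.21 to 0.39, while the 1 tested probe of the R strand had -0.22 (limma adjusted p = 0.471).

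The arrays lay on 3 slides, and every slide held both groups. With slide as a block 27 probes were called, 20 of them among the 21. D2 lay in column 3 and D3 in column 4 of every slide, so that slide column and dose cannot be told apart. Lung markers were present: all 15 tested markers of type 1, type 2, club and ciliated cells were well above background in all 9 mice. Median red signals were 114 to 151.5 in the 10 arrays, no spot was saturated, and the number of mice limits the precision. The arrays of mouse 35 correlated at r = 0.988 across probes, against 0.962 to 0.982 for other pairs of D3 arrays, but their median absolute log2 difference of 0.113 was close to the 0.116 between mice 31 and 32. That both came from 1 mouse was read from their titles, and with the arrays kept apart, which counts 1 animal as 2, 40 probes were called.

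The number of called probes moved with single mice. It was 1 without D3 mouse 32 or 35, 2 without D3 mouse 31 or D2 mouse 30, 5 without D2 mouse 23, 8 without D3 mouse 34, 12 without D2 mouse 26 and 63 without D2 mouse 28. The mean level of cardiac muscle genes, such as Myh6, the atrial myosin heavy chain, was 0.36 in D2 mouse 28 and 0.44 in D3 mouse 35 against 2.34 to 3.50 in the other D2 and D3 mice. In D1 it was 0.46 in mouse 24 and 2.59 to 4.03 in the other 3 mice, and the part of heart tissue in the counts was not tested. The animal number of D2 mouse 23 falls among those of D1, and by the group sizes in the methods D1 would be larger and D2 smaller by 1 animal. It was kept in D2 as labelled, and with it counted in D1 11 probes were called. Median centring of each array in place of loess gave 0 calls in limma (269 probes at an unadjusted p under 0.05), and the scanner software's processed signals gave 1, that of Ccng1.

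**Figure D5:**
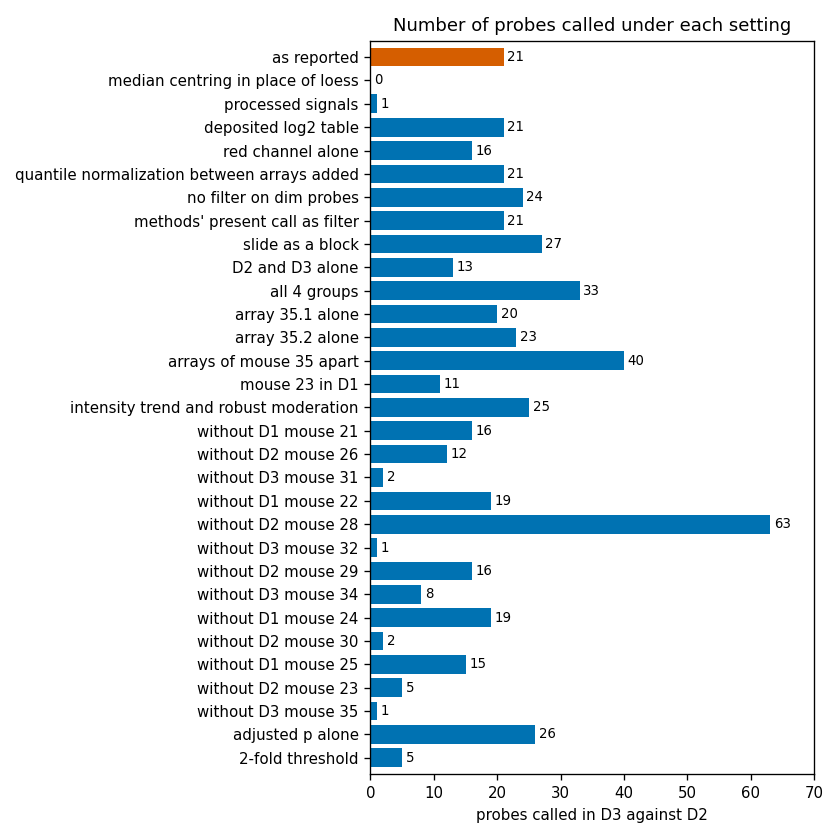
Bars give the number of probes called between D3 and D2 as reported (21, orange) and under each other setting or without each mouse (blue), on an axis that starts at 0. The count runs from 0 under median centring to 63 without D2 mouse 28.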

How the data were processed

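Members, gene lists and tests were chosen with earlier results of these data known. Spot intensity values (median pixel brightness in red and green, without background subtraction) were taken from the deposited scanner files. The software release and scanner in the file headers are not those the study's methods name. The deposited series table holds log2 ratios the authors had normalized by LOWESS. It served as an alternative, and its correlation with the ratios used here was 0.995 to 0.998 per array.

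Of 62976 spots per array, 3671 controls and outlier spots were left out, and median signals were normalized by loess (span 0.3) within each array and averaged over the spots of a probe. Probes well above background in red in at least 4 mice of D2 or of D3 were tested, and 55 probes with no spot left in some mice were not used. In R 4.3.3, lmFit and eBayes of limma 3.58.1 fitted 1 model over 13 exposed mice (D1, D2 and D3), with thresholds of 0.05 on the Benjamini-Hochberg adjusted p and 1.5-fold; it was checked on simulated data. Of 28685 RefSeq-type identifiers 27235 matched 1 symbol. MAANOVA, used in the study, was not run.

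Genes followed were all called genes, a fixed list of genes, and for lists with no member past the adjusted p the 2 members of brightest red signal. Not all of the last group are named in the text. Genes named as the extreme of a list or as next to the threshold, as well as Cd72, were chosen after their values were seen. A gene is given by its brightest probe, or if called by its most changed called probe.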

Additional observations from a re-analysis of the deposited data

Results flagged for a closer look

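Of 162 groups of levels looked at for a mouse far from the others of its dose, 9 stood out, and chance gives about 1 in 20. In D2 these were mouse 28 for Tiparp (-0.80, the nearest other mouse at -0.64), Myh6 (1.06, nearest 6.14), Gata2 (2.15, nearest 2.42) and the called noncoding probe on chromosome 1 (A_30_P01026536, 0.38, nearest -0.12), and mouse 29 for C3 (2.35, nearest 1.79). In D3 they were mouse 32 for Per2 (1.12, nearest 1.70) and Bst2 (-0.17, nearest -1.15), and mouse 35 for Mcm6 (-1.67, nearest -3.0) and Cd79b (0.031, nearest 0.78).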

How the results depend on the processing

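The 21 calls (17 higher, 4 lower) fell to 0 under median centring (0 higher, 0 lower by limma) and to 1 with processed signals (1 and 0), and were 13 with D2 and D3 alone (1 lower), 11 with mouse 23 in D1 (9 and 2), 33 with all 4 groups, D0 included, in the model (29 higher), 40 with the arrays of mouse 35 apart, as if 2 animals (33 and 7), and 5 at 2-fold (4 and 1), and 2 were lower with the red channel alone. Without any 1 mouse they were 1 to 63, of which 1 to 50 were higher and 0 to 13 lower. The deposited table (21), quantile normalization (21), the methods' present call (21), no filter (24), slide as a block (27, of which 20 were among the 21), trend and robust moderation (25) and either array of mouse 35 (20 and 23) stayed within 1.5 times. The cause of these shifts was not tested. No call reversed. Of the 81 genes and probes followed across settings, 20, none of them called, turned sign under some setting. Without any 1 mouse these ran over Bax (-0.097 to 0.25), Cyp1b1 (-0.00039 to 0.42), Ahrr (-0.061 to 0.11), Arntl (-0.089 to 0.24), Per2 (-0.063 to 0.15), Nfe2l2 (-0.030 to 0.12), Mt1 (-0.060 to 0.13), Nkg7 (-0.26 to 0.037), Lck (-0.24 to 0.075), Cd3e (-0.049 to 0.14), Cryab (-0.050 to 0.028), Myl4 (-1.11 to 0.80), Myh6 (-1.50 to 0.78), Hba-a1 (-0.27 to 0.031), Car4 (-0.15 to 0.0030) and Car2 (-0.14 to 0.048). Under other settings the turned values were Bax (-0.097), Ahrr (-0.033, -0.0065, -0.061), Arntl (-0.046), Per2 (0.016, 0.0014, 0.031, 0.028), Sftpc (0.032), Scgb1a1 (0.0095), Nfe2l2 (-0.014), Cd3e (-0.0088), Hspa8 (0.031, 0.013, 0.033), Cryab (0.022, 0.012, 0.15, 0.028, 0.0059), Myl4 (0.045), Hba-a2 (0.031), Hba-a1 (0.25), Car4 (0.022) and Car2 (0.0028, 0.032). No paired analysis by replicate number was possible because mouse numbers are not shared between groups, and matching by slide was done through the block.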

Other observations

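Some of the largest differences were not called, and in these the mice of a dose differed widely among themselves. Trim12a, a tripartite motif gene, had levels of 3.62, -0.33, 4.27, 4.16 and -0.37 in the D2 mice 26, 28, 29, 30 and 23 and of 4.36, 4.65, 4.85 and 3.87 in the D3 mice. Trim34a, of the same gene family, had 2.79, 0.39, 3.44, 3.54 and 0.34 in D2 and 2.95 to 4.14 in D3, so that mice 28 and 23 were low in both. In Med8, a subunit of the Mediator complex, the same mice were high (1.44 and 1.66, against -0.17 to 0.12 in the other D2 mice), and the D3 mice had 1.55 to 2.54. Cyp26b1, which degrades retinoic acid, had -0.19 to 1.67 in D2 and 2.29, 0.30, 3.09 and 2.51 in D3, a difference of 1.62 ± 0.57 (SE; limma adjusted p = 0.341). These genes were chosen after their values were seen.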
